A study of Mus musculus with 7 samples.

Results

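The 35 genes described here encode the core machinery of the cell division cycle and its main regulators: 10 cyclins, 4 cyclin-dependent kinases, 4 inhibitors of those kinases, the 8 E2F factors, the 3 pocket proteins, the kinase Wee1, the phosphatases Cdc25a and Cdc25b, and the transcription factors Mybl1, Mybl2 and Mycn. They were taken as a fixed list of symbols, chosen with earlier results of these data known. Every deposited Argonaute crosslink position and miR-216 site was assigned to a gene when inside its GENCODE M21 bounds on the same strand (mm10). Of the 35 genes, 24 held at least 1 position. Together they held 104 of the 14054 positions in the table and 4 distinct miR-216 sites.

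The data come from PAR-CLIP of newborn mouse retina, a method that marks the uridine, replaced by 4-thiouridine, at which a protein touches RNA. CD-1 retinas of postnatal day 0 were kept as explants for 24 h with 0.1 mM 4-thiouridine and 20% horse serum, then exposed to 365 nm light (about 300 mJ/cm2). All 7 libraries shared this treatment, with no genotype or drug contrast, and each pooled 6 retinas: 5 were precipitated with the Argonaute antibody 2A8 and 2 with an IgG1 isotype control. The deposited tables give 1 value per position, the number of Argonaute libraries (2 to 5) that contain it, so values of single libraries and of the IgG controls were not analysed here, read depth is unknown, and no test over samples was possible. The labels do not say whether libraries came from separate litters. Positions of a gene share its RNA and are not replicates, and the exact binomial (Clopper-Pearson) 95% intervals below cover counting error only. As a check of the tissue, 6 of 8 retinal progenitor markers and 8 of 10 markers of retinal neurons held positions. Of 11 markers of other cells of the eye 2 did, Kdr and Pdgfra, which is near the 22.1% of all protein-coding genes. Rax, Fgf15, Pou4f2, Ptf1a and the pigment epithelium genes Rpe65, Tyr, Mitf and Pmel held none.

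A dividing cell passes from G1 into DNA synthesis when D-type cyclins with Cdk4 or Cdk6, then E-type cyclins with Cdk2, phosphorylate the pocket proteins and so release E2F factors, which switch on the genes of replication. Inhibitors of the Cip/Kip and Ink4 families hold these kinases back, and Wee1 and the Cdc25 phosphatases set the phosphorylation that keeps Cdk1 and Cdk2 off or on. The newborn mouse retina still contains dividing progenitors beside neurons that have left the cycle. MicroRNAs of the let-7, miR-15/16 and miR-17 families are textbook regulators of cell cycle messages. They lead Argonaute to a message mainly by pairing of the seed, bases 2 to 8 of the microRNA, with its 3′ UTR.

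The mature sequences of some of the microRNAs whose sites are described below are shown first, from RefSeq (GRCm38.p6), with the seed in capitals. Those of the others, such as miR-101 and miR-103, are not shown.
let-7a-5p: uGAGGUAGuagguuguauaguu
miR-15a-5p: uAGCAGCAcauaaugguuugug
miR-17-5p: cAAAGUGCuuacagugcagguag
miR-18a-5p: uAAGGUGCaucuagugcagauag
miR-19a-3p: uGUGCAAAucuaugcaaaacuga
miR-130a-3p: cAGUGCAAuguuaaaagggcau
miR-216a-5p: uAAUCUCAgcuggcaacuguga
miR-216b-5p: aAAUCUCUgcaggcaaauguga
The DNA letters of a full seed match (7mer-m8) are therefore CTACCTC for let-7, TGCTGCT for miR-15/16, GCACTTT for miR-17, TGAGATT for miR-216a and AGAGATT for miR-216b. An 8mer is such a match with an A after it.

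At 11 positions a let-7, miR-15/16 or miR-17 match began at most 1 nt before and at most 3 nt after the crosslinked base. This range was chosen, so it fixes how close these matches lie, and 16 positions had a match of these families anywhere within 20 nt. Of the 11, the 1 in coding exon 10 of Mybl1 is described with that gene, and the 10 in 3′ UTRs are shown next. Each is read 5′ to 3′ from the spliced transcript, base 7 is the crosslinked T, and capitals mark the seed matches of the families searched that begin at most 1 nt before and at most 3 nt after it. In the Mybl1 stretch at 1434 nt the second run of capitals is the deposited miR-216b interval. Distances are counted from the first base after the stop codon.
Mybl1 1406 nt, chr1:9668464-9668484, minus strand: gaagtATGCTGCTAtagaaag
Mybl1 1434 nt, chr1:9668430-9668456, minus strand: atcggctTGCTGCTAtgAGAGATggaa
Wee1 555 nt, chr7:110142661-110142681, plus strand: gtgaattTGCTGCTAttttag
Cdc25a 650 nt, chr9:109892863-109892883, plus strand: ccagtatTGCTGCTActcaaa
E2f3 2508 nt, chr13:29907381-29907401, minus strand: attgagtTGCTGCTActaaaa
E2f7 2365 nt, chr10:110787197-110787217, plus strand: catctatTGCTGCTtgccgct
Ccnd1 2206 nt, chr7:144930387-144930407, minus strand: ccaccATGCTGCTggcccggg
E2f5 26 nt, chr3:14605737-14605757, plus strand: ctattatCTACCTCtataaca
E2f6 1033 nt, chr12:16826411-16826431, plus strand: gcgctctCTACCTCAgtgggt
Cdkn1a 434 nt, chr17:29099821-29099841, plus strand: cctgaataGCACTTTggaaaa

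Of the 35 genes, 24 (68.6%) held a position, beside 22.1% of all 22028 protein-coding genes. These genes were chosen with earlier results of these data known, so the shares given here describe them and do not test an excess. In 3 or more libraries the count was 15 genes (42.9%, beside 9.55%), in 4 or 5 libraries 8 genes (22.9%, beside 4.54%), and in all 5 libraries 4 genes (11.4%, beside 1.86%): Ccnd1, Cdkn1b, Mybl1 and Mycn. Those 4 genes were also the ones with 8 or more positions (11.4%, beside 1.33% of protein-coding genes), and they held 46 of the 104 positions (44.2%). A gene enters the table only when enough of its RNA is read in at least 2 libraries, RNA levels are not in these files, and the part that expression played in these counts was not tested. In whole retina, fewer cells that carry a message and less of it per cell cannot be told apart. The median number of positions per gene with any was 3 among these genes and 2 among all protein-coding genes. No position lay in a second gene on the same strand.

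**Figure D1:**
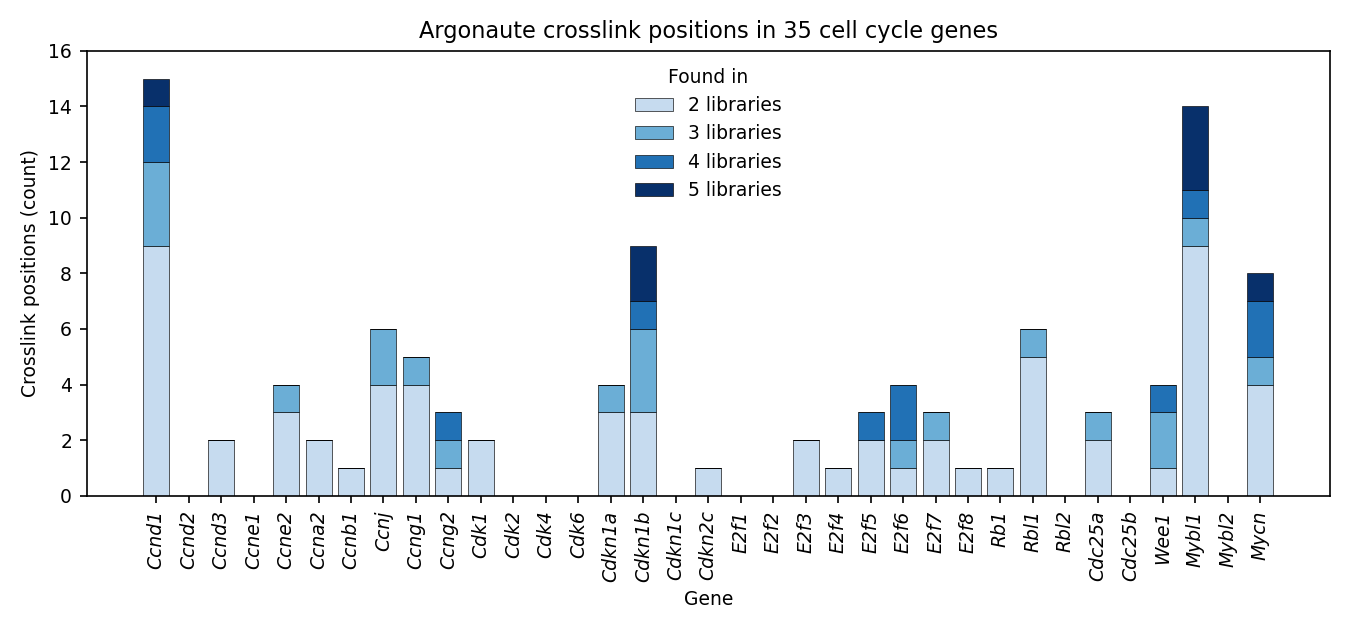
Number of Argonaute crosslink positions in each of the 35 genes, with bars divided by the number of Argonaute libraries (2 to 5) that contain the position. Ccnd1 with 15 and Mybl1 with 14 stand highest, and 11 genes have no bar.

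The 11 genes without a position were Ccnd2, Ccne1, Cdk2, Cdk4, Cdk6, Cdkn1c, E2f1, E2f2, Rbl2, Cdc25b and Mybl2. Close relatives differed in this table: Ccnd1 had 15 positions and Ccnd2 none, Ccne2 had 4 and Ccne1 none, Mybl1 had 14 and Mybl2 none. Genes without a position had annotated 3′ UTRs of 531 to 10217 nt (median 1281 nt), the longest being that of Cdk6, and genes with a position 373 to 3439 nt (median 1473 nt). Absence from the table is no evidence that Argonaute was absent from the message.

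Among the D-type cyclins, the growth-factor-responsive partners of Cdk4 and Cdk6, Ccnd1 (ENSMUSG00000070348.5) held 13 positions spread from 274 to 2206 nt of its 2676 nt 3′ UTR and 2 in coding exon 4 of 5. The position at 1966 nt was found in 5 libraries, those at 571 and 2206 nt in 4, those at 1477 and 1840 nt in 3, as was 1 of the coding positions, and the other 9 in 2. Only 1 of these 15 positions, at 2206 nt, had a seed of a searched family just after it. Its TGCTGCT, with an A before it, is a 7mer of both miR-15/16 and miR-103. Ccnd3 held positions at 338 and 885 nt of its 907 nt 3′ UTR. An 8mer of miR-182 began 1 nt before the first crosslink and a 7mer of miR-103 began 1 nt before the other. Both were in 2 libraries.

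Cyclin E2, which drives entry into S phase with Cdk2, had 4 positions in its 1577 nt 3′ UTR, at 250, 480, 930 and 1160 nt. The position at 480 nt was in 3 libraries and the others in 2, and the one at 250 nt began an 8mer of miR-30. The mitotic cyclins had few and only in 2 libraries: Ccna2 at 778 and 855 nt and Ccnb1 at 229 nt of their 3′ UTRs, none with a searched seed just after. Of the less studied cyclins, Ccnj had 6 positions, all in the 3′ UTR. Ccng1, a p53 target, had 4 in the 3′ UTR and 1 in coding exon 5 of 6. Its position at 1995 nt, in 3 libraries, came 1 nt before an 8mer of miR-181, and that at 2128 nt came 3 nt before an 8mer of miR-9. Ccng2, linked to cell cycle arrest, was the one gene of the 35 with a coding position in 4 or more libraries. It lay in exon 6 of 8, in 4 libraries, with no searched seed just after. A coding position of Ccng2 in exon 4 of 8, in 3 libraries, had overlapping 7mers of miR-19 and miR-130. The Ccng2 position in the 3′ UTR, at 835 nt in 2 libraries, came 3 nt before a 7mer of miR-96.

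Of the cyclin-dependent kinases Cdk1, Cdk2, Cdk4 and Cdk6, 1 of 4 (25.0%, near the 22.1% of all protein-coding genes) had positions: Cdk1, the mitotic kinase. One was at 48 nt of its 3′ UTR, 1 nt before a 7mer of miR-30, and the other lay in coding exon 8 of 8. Each was in 2 libraries.

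Of the kinase inhibitors, Cdkn1b (ENSMUSG00000003031.14), which encodes p27, had 9 positions, all in its 3439 nt 3′ UTR. They fell into 3 stretches: 724 and 927 nt in 2 libraries, 4 positions between 2246 and 2353 nt, and 3 between 3155 and 3349 nt. The middle stretch held the most recurrent ones, at 2246 and 2264 nt in all 5 libraries and at 2282 and 2353 nt in 3. The first 3 of these were spaced by 18 nt each. Neither of the positions in 5 libraries had a searched seed just after it, as their letters show (base 7 crosslinked, no capitals because no 7mer of the 35 searched families lies there). Among further microRNAs searched later, miR-190a had a match 1 nt after the crosslink at 2246 nt.
Cdkn1b 2246 nt, chr6:134924314-134924328, plus strand: tttaaatacatatcg
Cdkn1b 2264 nt, chr6:134924332-134924352, plus strand: actccattgaatggacatcct
In the last stretch, the position at 3349 nt (3 libraries) came 2 nt before an 8mer of miR-24, and the one at 3155 nt (4 libraries) had no searched seed. Cdkn1a, encoding p21, had 4 positions in its 1334 nt 3′ UTR, at 80 nt in 3 libraries and at 125, 151 and 434 nt in 2. The last carried the only miR-17 match just after a crosslink in the 35 genes, 2 nt after it. Cdkn2c, an Ink4 inhibitor, had 1 intronic position in 2 libraries.

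The E2F factors with positions were E2f3 to E2f8, while E2f1 and E2f2, both activators, had none. E2f5, which acts with pocket proteins as a repressor, had a position in 4 libraries at 26 nt of a 592 nt 3′ UTR, with a let-7 7mer 1 nt after it. Its positions at 464 and 532 nt were in 2 libraries, and a miR-96 7mer began 1 nt before that at 532 nt. E2f6, a repressor that does not bind pocket proteins, had positions at 533, 681, 1033 and 1064 nt of a 1368 nt 3′ UTR, in 2, 3, 4 and 4 libraries. Its position at 1033 nt had a let-7 8mer 1 nt after it. E2f7, an atypical repressor, had a position in 3 libraries at 2365 nt before a miR-15/16 7mer, and 2 coding positions in 2 libraries, that in exon 11 of 13 being followed 2 nt later by an 8mer of miR-9. E2f8, its close relative, had a position at 406 nt before an 8mer of miR-19, and E2f3, an activator, had one at 2508 nt before an 8mer of miR-15/16 and another in an intron. E2f4 had 1 coding position. These last 3 genes had positions in 2 libraries only.

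Of the pocket proteins, Rbl1 (p107) had 5 positions in its 3′ UTR and 1 in coding exon 5 of 22, Rb1 had 1 in an intron and Rbl2 had none. The Rbl1 position at 589 nt was in 3 libraries and the others, at 30, 1416, 1446 and 1465 nt and in coding sequence, in 2. None of the 6 exonic positions of Rbl1 had a searched 7mer just after it. A miR-17 7mer ended at the base before the crosslink at 30 nt, starting 7 nt before it.

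Wee1 and Cdc25a act against each other on Cdk1 and Cdk2, and both carried a miR-15/16 8mer 1 nt after a 3′ UTR crosslink. Wee1 had positions at 555 and 718 nt in 3 libraries, at 638 nt in 2 and at 1100 nt in 4, in a 1174 nt 3′ UTR. The position at 1100 nt is shown because a miR-19 7mer and a miR-130 7mer overlap there, so that its letters cannot be given to one of them.
Wee1 1100 nt, chr7:110143206-110143226, plus strand: aacacaTTTGCACTtgtctgt
Cdc25a had positions at 360 nt (3 libraries), 1 nt before an 8mer of miR-9, and at 400 and 650 nt (2 libraries), the last with the miR-15/16 8mer. Cdc25b had none.

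Mybl1 (A-Myb, ENSMUSG00000025912.16), a relative of the cell cycle activator B-Myb, held 14 positions, 13 of them between 647 and 1954 nt of its 2469 nt 3′ UTR. Positions at 647, 899 and 1434 nt were in all 5 libraries, that at 1084 nt in 4, that at 1406 nt in 3 and the rest in 2. The 3 in all libraries had 8mers of 3 families: miR-181 at 647 nt, miR-130 at 899 nt and miR-15/16 at 1434 nt. The 2 miR-15/16 8mers of its 3′ UTR had crosslinks 28 nt apart, and 35 nt further, at 1469 nt, overlapping 7mers of miR-130, miR-148 and miR-128 began 0 to 3 nt after a crosslink in 2 libraries. A position in coding exon 10 of 16 (2 libraries) had 2 overlapping miR-15/16 7mers and 1 of miR-103. Of its 14 positions, 7 had a searched seed just after.

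Mycn (ENSMUSG00000037169.15), a Myc factor of progenitor cells, had the highest density of the 35 genes, 7 positions in a 913 nt 3′ UTR or 7.67 per kb, ahead of Mybl1 with 5.27, E2f5 with 5.07 and Ccnd1 with 4.86. Its position at 555 nt was in 5 libraries, those at 757 and 850 nt in 4, that at 30 nt in 3 and those at 490, 677 and 885 nt in 2, with 1 more in coding exon 2 of 3. Of these 8 positions, 5 had a searched seed just after: miR-19 at 30 nt, miR-101 at 490 and 555 nt, miR-30 at 757 nt and miR-18 at 850 nt. No let-7, miR-15/16 or miR-17 match began within the chosen range. The letters at 555 and 850 nt are shown for their recurrence and because at 850 nt a miR-18 8mer is followed, 11 nt after the crosslink, by a miR-17 7mer, both in capitals.
Mycn 555 nt, chr12:12936437-12936457, minus strand: ctgttatGTACTGTActaatt
Mycn 850 nt, chr12:12936136-12936162, minus strand: tagtgctGCACCTTAgaGCACTTTgaa

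**Figure D2:**
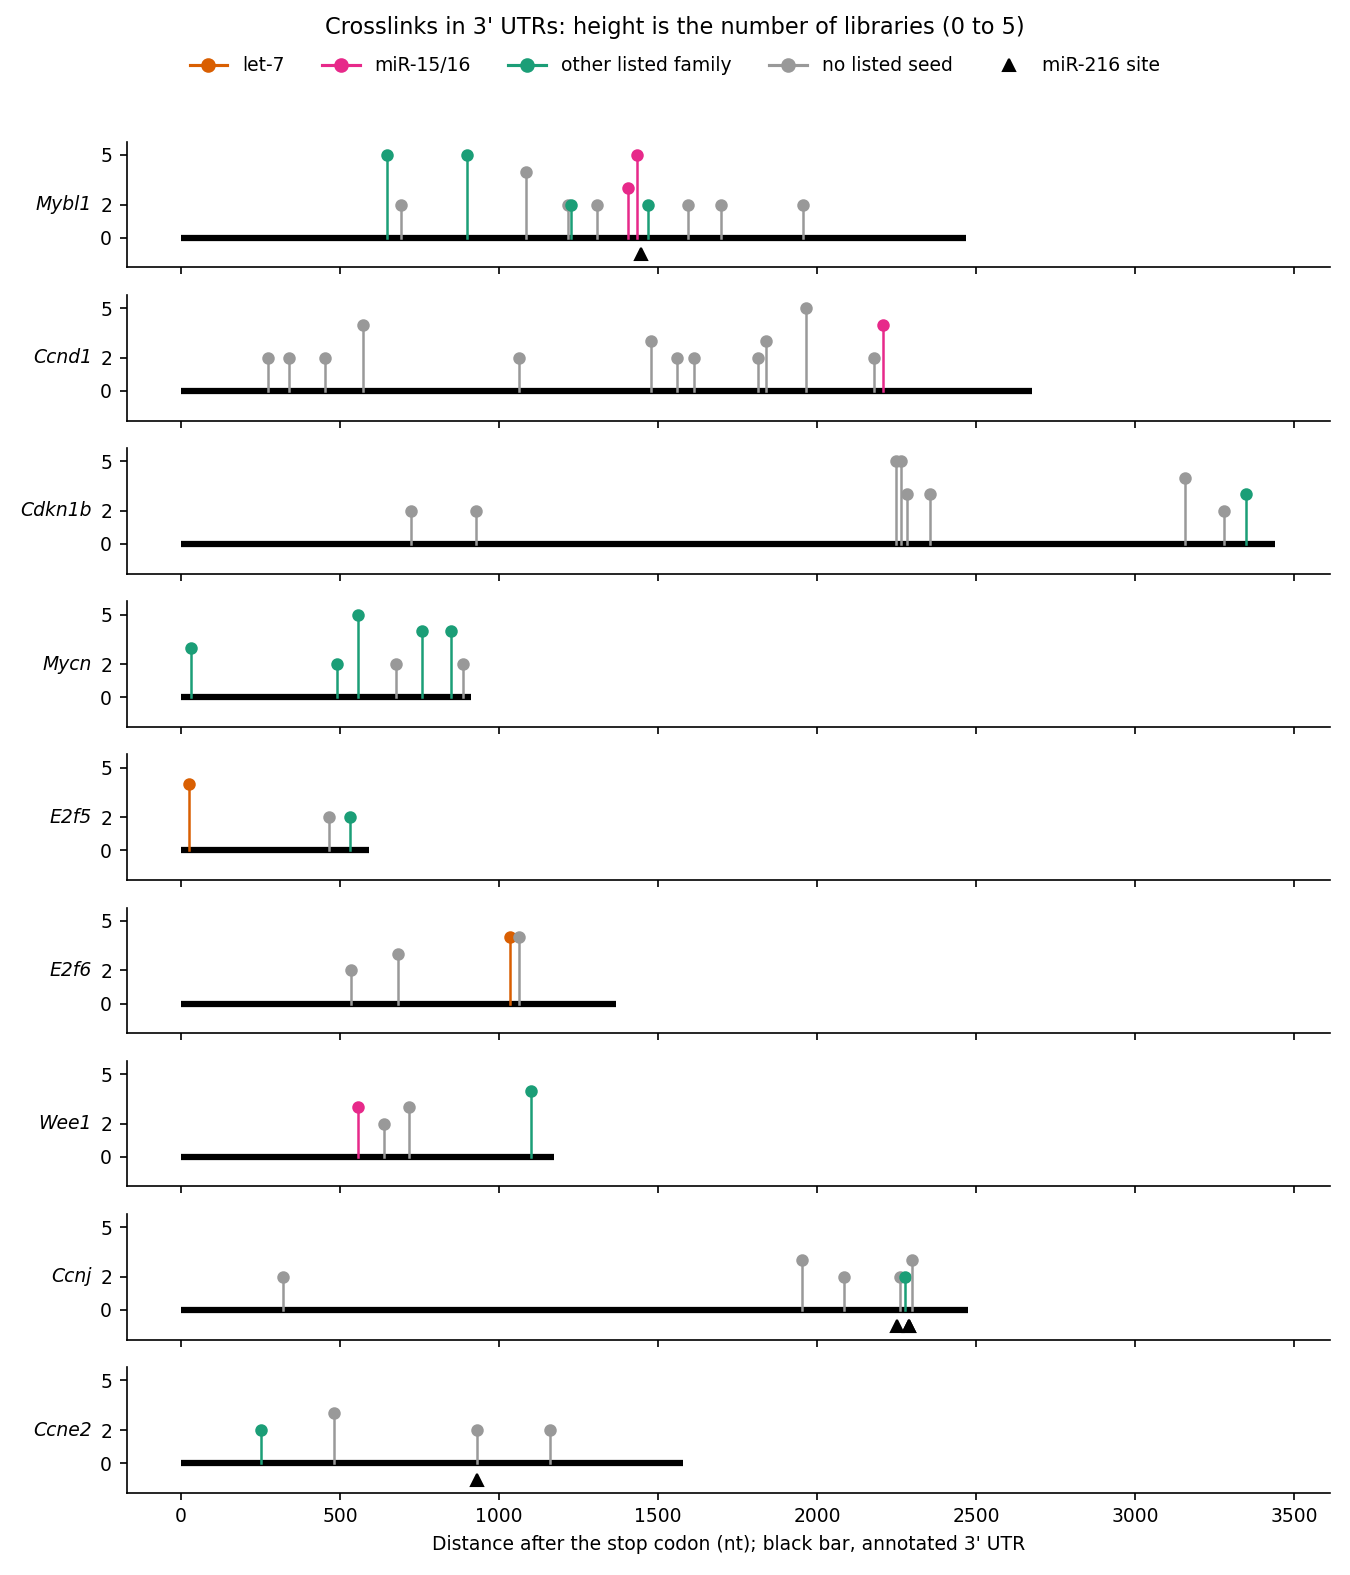
Crosslink positions along the annotated 3′ UTRs (black bars) of 9 genes, in nt after the stop codon; the height of a stem is the number of Argonaute libraries and its colour the seed just after the crosslink. Triangles mark the deposited miR-216 sites of Mybl1, Ccnj and Ccne2, and the middle stretch of Cdkn1b and the 2 close miR-15/16 stems of Mybl1 can be seen.

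The series was made to find miR-216 sites, and 3 of the 35 genes had one (8.57%, beside 1.51% of protein-coding genes): Ccnj, Ccne2 and Mybl1. Each of the 404 deposited entries lay within 15 nt of a crosslink, and the 35 genes held positions more often (68.6%, beside 22.1%). The part this played in the count was not tested. All 4 distinct sites lay in 3′ UTRs. Ccnj, the vertebrate counterpart of an early embryonic cyclin of the fly, was 1 of the 0.0908% of protein-coding genes with 2 or more. Its sites lie at 2252 and 2287 nt of a 2474 nt 3′ UTR in exon 6 of 6 (ENSMUST00000025983.12). They are shown with the 8mers in capitals. The crosslinked T is base 13 of the first stretch and base 4 of the second.
Ccnj 2260 nt, chr19:40848346-40848361, plus strand: tttTGAGATTActgga
Ccnj 2277 nt, chr19:40848372-40848395, plus strand: atgtgtactgtgaAGAGATTAatg
The first site is an 8mer of miR-216a, and its crosslink, in 2 libraries, lies 8 nt after the start of the deposited interval, past the end of the match. The second is an 8mer of miR-216b and is listed for 2 crosslinks, one 10 nt before the interval in 2 libraries and one 12 nt after its start in 3. No Ccnj position lay inside either match. The position 10 nt before the second site had a miR-101 7mer 1 nt after it and a miR-27 8mer 3 nt after it, so other seeds stood nearer to that crosslink than the miR-216b match did.

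The Ccne2 and Mybl1 sites were weaker matches. The Ccne2 site starts at the crosslinked T itself, at 930 nt in exon 12 of 12, in 2 libraries. Its TGAGAT, in capitals below, is the offset 6mer of miR-216a, followed by G instead of the T that would complete the 7mer.
Ccne2 930 nt, chr4:11204022-11204042, plus strand: atattaTGAGATgaggactgt
No seed of another searched family began just after this crosslink. The Mybl1 site, at 1445 nt in exon 16 of 16, was listed for miR-216b with a crosslink in 5 libraries. It is the offset 6mer AGAGAT, followed by G, and starts 11 nt after that crosslink. The stretch shown above for 1434 nt has the miR-15/16 8mer between the crosslink and this interval, directly after the crosslinked base. With only full 7mer or 8mer matches counted, 1 of the 3 genes, Ccnj, had a miR-216 site.

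To see which microRNAs stood at these crosslinks, 7mers of 35 families were looked for at the 101 exonic positions, all of which fell on T. miR-124-3p was not searched. A match that began close to the crosslink, no earlier than 1 nt before and no later than 3 nt after it, stood at 35 positions (34.7%, 25.5 to 44.8) in 18 genes, beside 26.3% (25.5 to 27.2) of 10836 exonic positions in other genes. These intervals meet, and the difference was not tested. Of 65 matches within 20 nt, 44 started in that range, 18 of them exactly 1 nt after the crosslinked T, and 21 of the 44 were 8mers. A match had to end within 20 nt, so starts near the far end of the window could not be counted. Anywhere within 20 nt, 44.6% of the positions had a match, beside 36.4% in other genes.

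**Figure D3:**
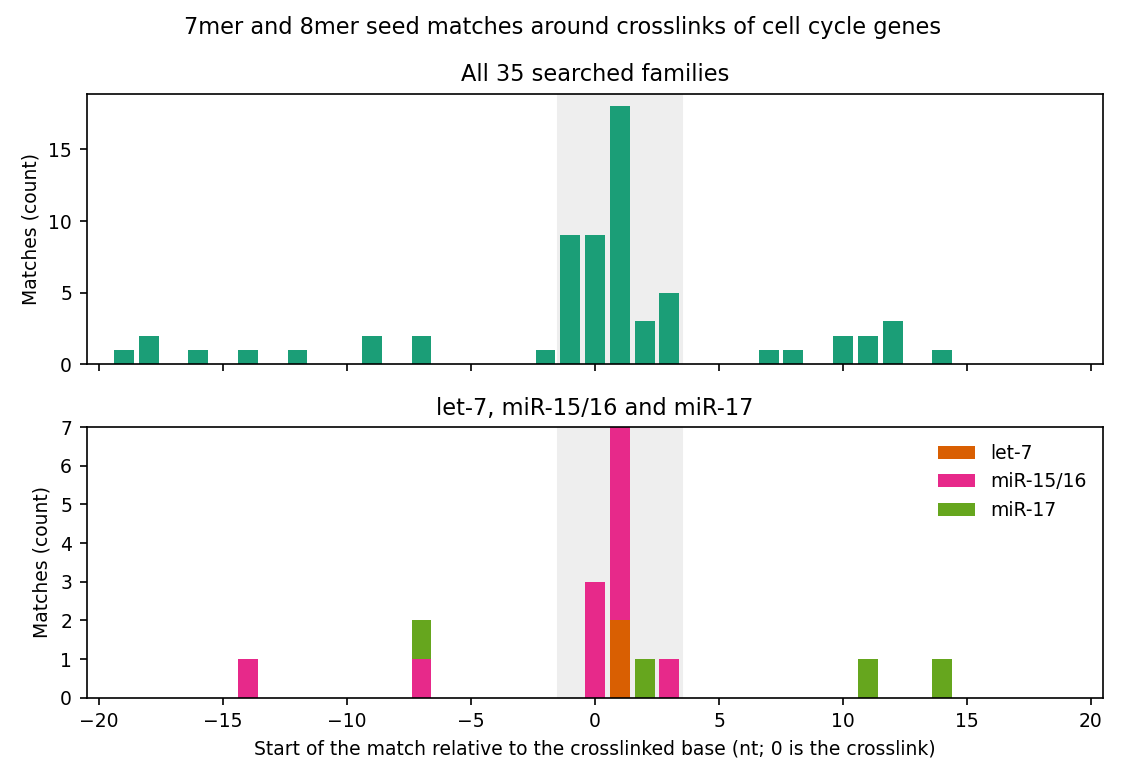
Number of 7mer and 8mer matches by the distance of their first base from the crosslinked base, for all 35 searched families (top) and for let-7, miR-15/16 and miR-17 (bottom), at the 101 exonic positions of the cell cycle genes; grey marks the range just after the crosslink. The highest bar in the upper panel, of 18 matches, is at 1 nt after the crosslink. Matches had to end within 20 nt, so the right edge is empty by construction.

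The miR-15/16 family stood at the most positions, 8 of 101 (7.92%, 3.48 to 15), beside 2.31% (2.03 to 2.61) in other genes. These 8 positions were in 6 genes, Mybl1 with 3 and Ccnd1, E2f3, E2f7, Cdc25a and Wee1 with 1 each, and 5 of them were in 3 or more libraries. Without Mybl1 the share was 5.75% (1.89 to 12.9), an interval that includes that of other genes. At 3 of the 8, 1 in Ccnd1 and 2 in Mybl1, a miR-103 7mer lay at the same place, since ATGCTGCT holds both. let-7 stood at 2 positions (1.98%, 0.241 to 6.97), in E2f5 and E2f6, both in 4 libraries, beside 1.66% in other genes. miR-17 stood at 1 (0.990%, 0.0251 to 5.39), in Cdkn1a, beside 2.69%. Of the 4 miR-17 matches within 20 nt of a crosslink, the other 3 began 14 nt after it in coding sequence of Ccnd1, 11 nt after it in Mycn and 7 nt before it in Rbl1. Together the 3 families stood at 11 positions (10.9%, 5.56 to 18.7), beside 6.65%. After miR-15/16 the most frequent family was miR-130 with 5 positions (4.95%, beside 2.63% in other genes). Next came miR-19 (3.96%, beside 2.24%) and miR-103 (3.96%, beside 0.803%) with 4 each. With 3 each stood miR-101 (2.97%, beside 0.711%), miR-30 (2.97%, beside 1.75%) and miR-9 (2.97%, beside 1.62%). The differences between families were not tested. Several of these families share letters, so 7 positions counted for more than 1 family.

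The share of exonic positions with a searched seed just after the crosslink was 27.0% (17 of 63, 16.6 to 39.7) in 2 libraries. It was 40.0% (8 of 20, 19.1 to 63.9) in 3 and 55.6% (10 of 18, 30.8 to 78.5) in 4 or 5. The intervals of these 3 shares meet, and their difference was not tested. Other genes gave 20.7%, 36.3% and 44.9%. In 4 or 5 libraries, 8 positions had no searched seed just after the crosslink. They were 2 in Ccnd1 (571 and 1966 nt), 3 in Cdkn1b (2246, 2264 and 3155 nt) and 1 each in Ccng2, E2f6 (1064 nt) and Mybl1 (1084 nt). The Ccnd1 position at 1966 nt, in all 5 libraries, stands just before a run of A and is shown for that reason.
Ccnd1 1966 nt, chr7:144930627-144930647, minus strand: gctgtattccaaaaaaaaaaa

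The positions of these genes lay mostly in 3′ UTRs, 89 of 104 (85.6%, 77.3 to 91.7), beside 54.0% (53.1 to 54.8) of 13408 positions in other genes and 56.2% (55.3 to 57.0) of those in other protein-coding genes. Coding sequence held 12 (11.5%, 6.11 to 19.3, beside 21.8%) in 9 genes. Introns held 3 (2.88%, 0.599 to 8.20, beside 18.8%), 1 each in Cdkn2c, E2f3 and Rb1. No position lay in a 5′ UTR. Positions in 3 or more libraries made up 36.5% (38 of 104, 27.3 to 46.6), beside 25.7% (24.9 to 26.4) in other genes. Within 3′ UTRs alone the shares were 39.3% (29.1 to 50.3) and 32.8% (31.7 to 33.9), whose intervals meet. In the first 500 nt of the 3′ UTR lay 23.6% (15.2 to 33.8) of the 3′ UTR positions, beside 31.6%. None of these differences was tested, because positions within a gene are not independent.

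**Figure D4:**
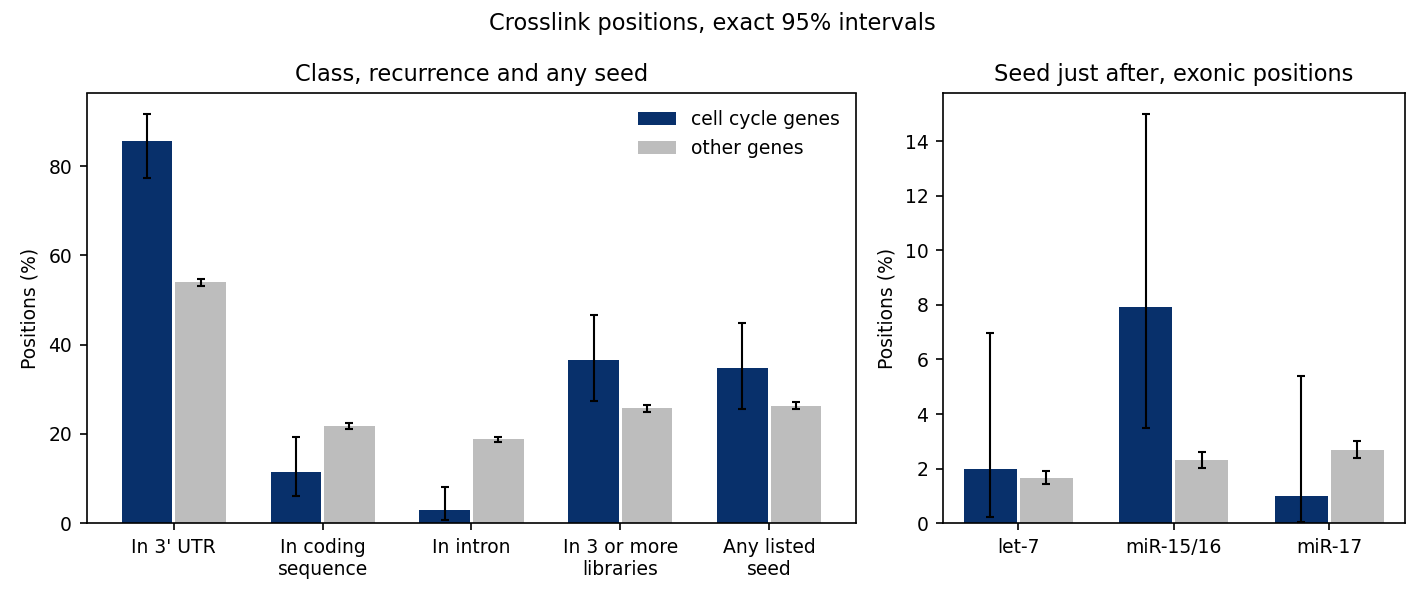
Shares of crosslink positions (%) in cell cycle genes (dark) and in other genes (grey), with exact 95% binomial intervals; the left panel gives class, recurrence and any searched seed, the right panel 3 seed families at exonic positions. The 3′ UTR bars stand at 85.6% and 54.0%, and the miR-15/16 bars at 7.92% and 2.31%.

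A list of 78 other cell cycle genes held further cyclins and kinases, and replication, checkpoint and mitotic genes. Some of its cyclins and kinases, such as Cdk13, act in transcription, so its shares are not those of cell division genes alone. In this list, 36 genes (46.2%) held a position, beside the 22.1% of all protein-coding genes, and they held 101 positions in all. In 3 or more libraries the count was 14 genes (17.9%, beside 9.55%), in 4 or 5 libraries 6 (7.69%, beside 4.54%) and in all 5 libraries 2 (2.56%, beside 1.86%). The share in all 5 libraries, from 2 genes, was near that of all protein-coding genes, and the share in 4 or 5 libraries rests on 6 genes. These counts are small, the differences were not tested, and this list too was chosen with earlier results of these data known. The 2 in all 5 libraries were Top2a, the topoisomerase of dividing cells, with 7 positions, and Cdk13, a transcriptional kinase, with 4. The next were Ccnt2 with 8 positions, Mdm4 with 7, Ccnc with 4 and Ccny with 3, each with a position in 4 libraries. Cdk19 had 10 and Cdk17 4, while Ccnh and Cdk14 had 2 each, and the most recurrent of each was in 3 libraries. A miR-216 site was found in 3 of the 78, Cdk13, Cdk19 and Ccnf (3.85%, beside 1.51%). The mitotic kinases Aurka and Aurkb had no position, and the proliferation marker Mki67 had 9, all in 2 libraries and none in its 3′ UTR.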

How the data were processed

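Tables came from 5 pooled Argonaute libraries; the 2 IgG libraries entered no value. Reads were handled with STAR, bedtools and CASAVA 1.8.2 on mm10, per the submitters' processing notes; the crosslink caller is not given in the sources used here. Per the file headers, the deposited score is the number of samples (2 to 5) that contain a crosslink. The miR-216 table has no header; each of its 404 entries lay within 15 nt of a crosslink that carried an equal score, so the authors' score there was read the same way.

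Positions were placed in GENCODE M21 genes on the same strand, with 3′ UTR preferred over coding sequence, then 5′ UTR, then noncoding exon and last intron. Sequence came from GENCODE M21 spliced transcripts (basic, principal and longest first), so introns were not searched. Seeds were read from RefSeq mature microRNAs for 35 of 36 families. Intervals used scipy 1.17.1 in Python 3.11.15. The seed search was tested on simulated data. The 35 genes and the other lists were chosen with earlier results of these data known. Described in most detail were genes of the 35 with a miR-216 site, a position in 4 or 5 libraries or a let-7, miR-15/16 or miR-17 seed. Of other cell cycle genes, the first 10 by score and those with a miR-216 site were named. Mki67, Aurka and Aurkb were named after their values were seen.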

Additional observations from a re-analysis of the deposited data

How the results depend on the processing

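No paired analysis was possible because values of single libraries are not in the pooled tables, and for that reason no library could be left out. Asking for 3 or more libraries gave 15 genes with a position instead of 24 and 38 positions instead of 104. The 3′ UTR share became 92.1% instead of 85.6%. A let-7, miR-15/16 or miR-17 seed stood just after 7 positions instead of 11, and any searched seed just after 47.4% of exonic positions instead of 34.7%. In other genes, 2374 of the 3442 positions in 3 or more libraries lay in 3′ UTRs. Their shares with any searched seed just after were 36.3% in 3 libraries and 44.9% in 4 or 5. Of the other cell cycle genes, 14 instead of 36 had a position. With 7mer and 8mer matches only, 1 gene instead of 3 had a miR-216 site, and with 8mers only, 6 positions had a seed of the 3 families. Merging positions within 20 nt (99 clusters), exonic positions only, another order of classes, leaving out Ccnd1, other ranges of starts, counting 6mers, and leaving out Mybl1 or its coding repeat moved no count by over 1.5 times and no share past its interval. The leave-outs of Mybl1, the 3′ UTR seed share and further microRNAs were added after the data were seen. Depth is unknown.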

Other observations

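A search with 74 further microRNA seeds, chosen after the values were seen, found 4 of the 101 exonic positions with a match just after the crosslink (3.96%), beside 4.14% in other genes. These were miR-190a at 2246 nt of the Cdkn1b 3′ UTR (5 libraries), miR-425 at 1951 nt of Ccnj (3 libraries), and miR-221 at 1954 nt of Mybl1 and miR-31 at 1559 nt of Ccnd1 (2 libraries each). None of these 4 positions had a seed of the families searched first.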
